A study of Mus musculus with 12 samples.

Results

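Integrin genes were followed in mRNA-Seq libraries of mouse cells on the way from fibroblasts to pluripotent cells. The 10 genes described here are Itga3, Itga5, Itga6, Itga11, Itgav, Itgb1, Itgb3, Itgb4, Itgb5 and Itgb8, taken by symbol from a table of 24098 genes that holds 26 integrin alpha and beta subunit genes. Their values are FPKM, fragment counts scaled to transcript length and to a measure of library size, so levels of different genes can be set side by side. Which measure of library size was used is not given in the sources used here. Of the 10 genes, 9 reached 1 FPKM in at least 1 library, and Itgb8 did not.

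The starting cells (D0) were mouse embryonic fibroblasts (MEFs) from mid-gestation embryos that carry an EGFP cassette behind the stop codon of Oct4, an allele that every MEF-derived library shares. They were grown in serum and were not infected. All other MEF-derived cells came from MEFs infected with pMXs retroviruses for Oct4, Sox2, Klf4 and c-Myc (OSKM) in the presence of polybrene. They were kept in FF medium, which holds LIF, bFGF, CHIR99021, ascorbic acid and N-2. For the reprogramming cultures, the study's methods name mESC, KOSR or FF medium, with neither feeder cells nor passaging. Unsorted cells were taken on day 3 (D3). On days 6 and 9, antibody to Thy-1, a fibroblast surface protein, divided the cells into Thy-1+ (D6T+, D9T+) and Thy-1- (D6T-, D9T-) fractions. On days 12 and 16, antibody to SSEA-1, a carbohydrate of pluripotent cells, divided them into SSEA-1- (D12S-, D16S-) and SSEA-1+ (D12S+, D16S+) fractions. The study treats Thy-1- and SSEA-1+ cells as the successful route. The end points were fully reprogrammed induced pluripotent stem cells (iPSCs) and the embryonic stem cell line ES-D3 (mESCs). Per the labels both were grown in FF medium, whereas the study's methods give mESC or KOSR medium for these lines. Each of the 12 conditions was 1 library, so no difference has a replicate check and no test was made. D0 also differs from the other libraries in its medium, and infection and medium cannot be told apart.

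Integrins are surface receptors made of 1 alpha and 1 beta subunit. They bind extracellular matrix outside the cell and, through talin and kindlin at the tail of most beta subunits, the actin cytoskeleton inside it. The pair of alpha and beta sets the ligand. The dimer alpha5-beta1 is the classical fibronectin receptor, the alpha-v dimers with beta3, beta5 and beta8 bind arginine-glycine-aspartate (RGD) ligands such as vitronectin and the latent form of TGF-beta, alpha3-beta1 and alpha6-beta1 bind laminins, alpha11-beta1 binds fibrillar collagens, and alpha6-beta4 anchors epithelial cells to laminin through hemidesmosomes. Beta1 is the shared partner of most alpha subunits, whereas beta4 pairs with alpha6 only and its long tail binds plectin and the keratin network in place of actin.

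The tails through which these subunits reach the inside of the cell are encoded at the ends of their coding sequences. These ends are printed for the 5 beta subunits of the 10 genes and for 3 of the alpha subunits, to show how the tails of these subunits differ. Sequences are the last 36 codons with the stop codon, 5′ to 3′ on the coding strand, from the GENCODE M1 transcripts on NCBIM37 (mm9). For each gene the lowest-numbered transcript with a complete coding sequence was taken. Capitals mark codons of NPxY, a docking motif of beta tails, and of GFFKR, the membrane-proximal motif of alpha tails. Docking sites with other letters were not searched, so an unmarked stretch does not mean that a site is missing. Both were searched in the last 60 codons on the coding strand.
Itgb1: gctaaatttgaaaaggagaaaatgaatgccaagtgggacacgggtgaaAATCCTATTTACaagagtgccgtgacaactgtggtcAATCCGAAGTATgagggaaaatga
Itgb3: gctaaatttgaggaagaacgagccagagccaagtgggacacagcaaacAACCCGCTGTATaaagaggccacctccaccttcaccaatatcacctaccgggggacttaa
Itgb5: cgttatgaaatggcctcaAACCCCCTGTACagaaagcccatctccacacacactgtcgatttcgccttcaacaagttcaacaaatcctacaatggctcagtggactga
Itgb8: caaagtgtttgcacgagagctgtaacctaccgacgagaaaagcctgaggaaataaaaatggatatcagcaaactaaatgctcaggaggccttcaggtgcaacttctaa
Itgb4: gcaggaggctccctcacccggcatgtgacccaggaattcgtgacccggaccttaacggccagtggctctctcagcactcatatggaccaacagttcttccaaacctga
Itga5: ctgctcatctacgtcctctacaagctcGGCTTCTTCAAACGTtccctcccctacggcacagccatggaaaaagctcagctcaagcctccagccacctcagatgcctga
Itgav: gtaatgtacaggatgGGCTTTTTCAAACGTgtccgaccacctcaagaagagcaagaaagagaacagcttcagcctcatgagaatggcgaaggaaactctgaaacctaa
Itga11: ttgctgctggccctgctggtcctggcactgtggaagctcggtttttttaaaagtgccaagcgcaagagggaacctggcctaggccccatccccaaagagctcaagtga

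The Itgb1 end held 2 NPxY motifs, starting 19 and 7 codons before the stop codon. Itgb3 held 1 at 19 codons, and Itgb5 held 1 at 29 codons. No NPxY codons were found in the windows of Itgb8 and Itgb4. The coding sequence of Itgb4 had 1802 codons, against 767 to 799 in the other 4 beta genes printed. The GFFKR codons lay 26 codons before the stop in Itga5 and 30 in Itgav, and were not found in the Itga11 window. Among 21370 genes with a complete coding sequence, 0.421% held NPxY codons and 0.0515% held GFFKR codons in the same window. On mm9 the printed ends cover chr8:131250045-131255988 (Itgb1, + strand), chr11:104526905-104528459 (Itgb3, +), chr16:33947956-33948838 (Itgb5, +), chr12:120401590-120401697 (Itgb8, -), chr11:115869307-115869414 (Itgb4, +), chr15:103175700-103176406 (Itga5, -), chr2:83643148-83643492 (Itgav, +) and chr9:62629821-62630506 (Itga11, +). Those of Itgb8 and Itgb4 lie in 1 coding exon, and each of the others spans 2.

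Itga5 and Itgb1, which together encode the fibronectin receptor, were the most abundant alpha and beta subunit genes of D0, and their upstream sequences are shown for that reason. They are the 250 bases before the RefSeq start on GRCm38.p6, at chr15:103366792-103367041 (- strand) and chr8:128685404-128685653 (+ strand). Promoter entries were found for 7 of the 10 genes, and Itga6, Itgb3 and Itgb4 were not among them. Capitals mark matches to the letters GGGCGG (Sp1) and GGAATG (TEAD) on either strand.
Itga5: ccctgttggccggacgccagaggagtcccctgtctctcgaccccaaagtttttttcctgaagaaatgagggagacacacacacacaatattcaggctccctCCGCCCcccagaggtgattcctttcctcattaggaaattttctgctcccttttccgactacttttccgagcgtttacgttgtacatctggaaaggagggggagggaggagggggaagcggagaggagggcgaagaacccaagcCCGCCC
Itgb1: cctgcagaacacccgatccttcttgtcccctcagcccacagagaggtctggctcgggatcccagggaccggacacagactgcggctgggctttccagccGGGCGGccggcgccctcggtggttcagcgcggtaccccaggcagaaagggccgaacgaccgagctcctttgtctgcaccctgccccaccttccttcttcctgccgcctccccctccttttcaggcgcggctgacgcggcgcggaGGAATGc

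Both upstream sequences held the Sp1 letters, 151 bases before the start of Itgb1 and 149 and 6 bases before that of Itga5. Itgb1 also held the TEAD letters 7 bases before the start. The AP-1 letters TGANTCA and the Myc E-box letters CACGTG were in neither. Among 32851 RefSeq promoters of 250 bases before and 50 after the start, 35.7% held the Sp1 letters, 14.7% the TEAD letters, 7.81% the AP-1 letters and 7.15% the E-box letters. A match is a description of the letters only.

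Depth relative to D0, read from the step that 1 fragment makes in low genes, lay between 0.967 in D9T+ and 1.56 in D6T-, and absolute depth is unknown. The summed level of the 9 fibroblast markers was highest in D0, at 7666 FPKM against 55.2 in iPSCs. In iPSCs 8 of 8 pluripotency markers were at least 2-fold higher than in D0 (background 18.7%, as defined below). These levels go with the labels. Of other cell types, the 6 leukocyte markers summed to 26.7 FPKM in D0 and 176 FPKM in D16S-, of which Cd68 gave 115 and Laptm5 57.3, while Ptprc stayed at or under 0.42 FPKM and Lyz2 was highest in D0 at 9.47 FPKM. The 4 endothelial markers summed to between 1.67 FPKM (mESCs) and 17.6 FPKM (D9T-). Every difference below is one of log2(FPKM + 1), and "at least 2-fold" means a difference of 1 or more on that scale. This scale understates the change of genes near 1 FPKM. Comparisons with D0 share that library. For every comparison the share of the 14178 genes that reached 1 FPKM in any library and passed the same threshold is given as background. The interval that cuffdiff deposited with each FPKM is modelled within 1 library. Its median half-width was 94.6% of the FPKM for Itgb1, the narrowest of the 10 genes, and 165% for Itga11, the widest. In none of the 11 comparisons did the 2 intervals of any of the 10 genes lie apart without overlap. Between iPSCs and D0 this was so for 0.987% of the kept genes. Of the 14178 kept genes, it was so for 19 to 140 in the comparisons with D0 and for 0 to 4 in the others. Its absence among the 10 genes is thus no trait of the integrin genes. In bulk libraries fewer cells of a type and less RNA per cell cannot be told apart.

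**Figure D1:**
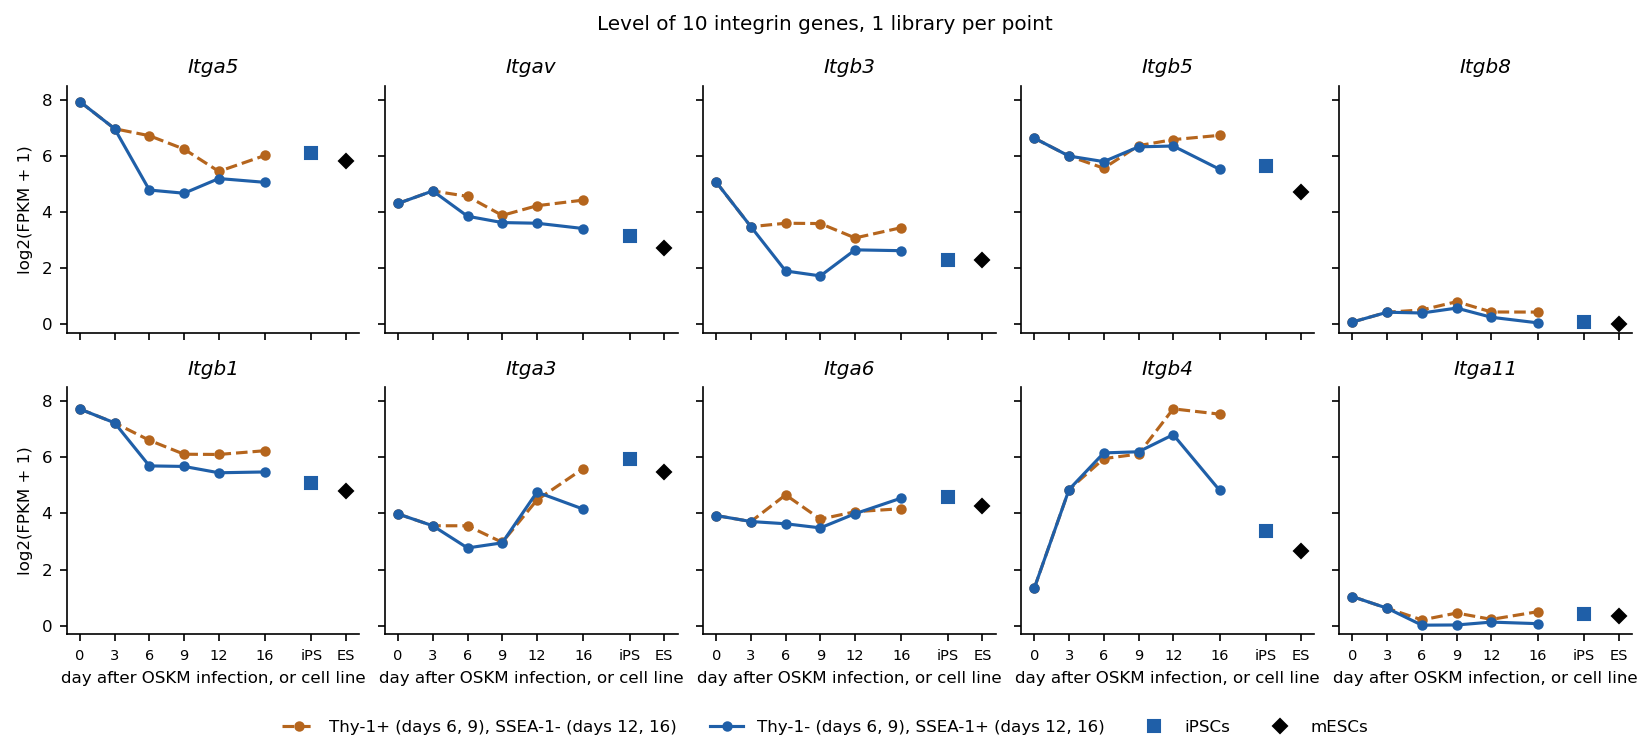
Level of each of the 10 integrin genes as log2(FPKM + 1) against the day after OSKM infection, with iPSCs (squares) and mESCs (diamonds) to the right. Each point is 1 library, lines join libraries of a route and error bars are not drawn because there are no replicates. Itga5, Itgb1 and Itgb3 start at their highest level in D0, whereas Itgb4 starts at 1.53 FPKM and reaches 211 FPKM in D12S-.

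To ask how the fibronectin receptor behaved when fibroblasts lost their identity, Itga5 and Itgb1 were followed first. Both genes were at their highest level in D0 and were lower in all 11 other libraries. Itga5 was lowest in Thy-1- cells and higher than that in the pluripotent lines, whereas Itgb1 was lowest in the pluripotent lines.

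Itga5 (chr15:103174720-103197194, - strand) stood at 245 and 125 FPKM in D0 and D3. In Thy-1+ cells it was at 105 and 75.1 FPKM on days 6 and 9, and in SSEA-1- cells at 42.9 and 64.2 FPKM on days 12 and 16. On the other route, D6T-, D9T-, D12S+ and D16S+ held 26.7, 24.6, 35.8 and 32.5 FPKM. The lowest level was thus reached in the Thy-1- cells of day 9, 9.93-fold below D0 (log2 difference -3.26). The iPSCs and mESCs held 67.5 and 56.2 FPKM of Itga5, and the iPSC level was 2.08-fold that of D16S+ (log2 difference 1.03). The microRNA gene Mir6963 shares this locus in the table and was listed at 0 in all 12 libraries.

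Itgb1 (chr8:131209554-131257100, + strand) stood at 210 and 149 FPKM in D0 and D3. Levels in D6T+, D9T+, D12S- and D16S- were 96.5, 68.1, 67.7 and 74.4 FPKM, and those in D6T-, D9T-, D12S+ and D16S+ were 50.8, 50.1, 42.7 and 43.6 FPKM. On each of the 4 days the Thy-1- or SSEA-1+ library was the lower one. The end points were lowest, with 33.2 and 27.0 FPKM for iPSCs and mESCs, and the iPSC level was 6.32-fold below D0 (log2 difference -2.62). Since beta1 is shared by many alpha subunits, the ratio of Itga5 to Itgb1 was computed per library. It was 1.17, 0.491, 0.746, 2.03 and 2.08 in D0, D9T-, D16S+, iPSCs and mESCs. Transcript levels do not measure how many dimers were formed.

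The other RGD-binding subunits did not share 1 pattern. Itgb3, a vitronectin receptor subunit, was highest in D0 and lowest in D9T-, as Itga5 was. Itgav, its alpha partner, stayed within 2-fold of D0 in every MEF-derived library before the iPSCs, and Itgb5 stayed among the abundant genes throughout. Itgb8 was close to the limit of detection.

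Itgb3 (chr11:104469370-104531790, + strand) stood at 32.7 FPKM in D0 and was already 3.22-fold lower in D3, at 10.2 FPKM (log2 difference -1.60). It then held 11.2, 11.1, 7.48 and 9.94 FPKM in D6T+, D9T+, D12S- and D16S-. In D6T-, D9T-, D12S+ and D16S+ it was at 2.75, 2.32, 5.32 and 5.19 FPKM. The minimum was again D9T-, 14.1-fold below D0 (log2 difference -3.34). In iPSCs and mESCs Itgb3 was nearly level, at 3.88 and 3.87 FPKM.

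Itgav (chr2:83564554-83647073, + strand) was highest in D3, at 26.1 FPKM against 18.9 FPKM in D0. Its levels were 22.7, 13.8, 17.8 and 20.6 FPKM in D6T+, D9T+, D12S- and D16S-, and 13.5, 11.4, 11.2 and 9.70 FPKM in D6T-, D9T-, D12S+ and D16S+. The lowest values belonged to iPSCs (7.86 FPKM) and mESCs (5.56 FPKM). The SSEA-1- cells of day 16 thus held a level close to that of the fibroblasts, while iPSCs were 2.40-fold below D0 (log2 difference -1.17, or -0.93 after scaling to the same total FPKM, which is short of 2-fold).

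Itgb5 (chr16:33829751-33949239, + strand), whose product pairs with alpha-v, stood at 98.9, 63.1 and 46.5 FPKM in D0, D3 and D6T+. The other unsuccessful libraries held 82.0 FPKM (D9T+), 95.2 FPKM (D12S-) and 106 FPKM (D16S-). On the successful route it was at 54.9, 79.5, 81.2 and 45.3 FPKM in D6T-, D9T-, D12S+ and D16S+, and iPSCs and mESCs held 48.6 and 25.7 FPKM. Both routes were thus higher on days 9 and 12 than on day 6, and they were furthest apart on day 16. The iPSC level was 2.04-fold below D0 on the ratio of FPKM (log2 difference -1.01, or -0.77 after scaling to the same total FPKM).

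Itgb8 (chr12:120396495-120477275, - strand), whose product activates latent TGF-beta with alpha-v, never reached 1 FPKM. It was highest in D9T+, at 0.756 FPKM, and was listed at 0 in mESCs. Its half-width relative to FPKM was 164%, and no direction is given for it.

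To see which laminin receptor genes were used, Itga3, Itga6 and Itgb4 were compared. Itgb4 was near the threshold of 1 FPKM in fibroblasts and was the most abundant beta subunit gene in 4 of the libraries in between, before it was low again in the pluripotent lines. Itga3 was highest in iPSCs, D16S- and mESCs, and Itga6, the only partner of beta4, stayed within a narrow range.

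Itgb4 (chr11:115836023-115869726, + strand) stood at 1.53 FPKM in D0, and D3 held 27.9 FPKM, 18.2-fold more (log2 difference 3.51). In Thy-1+ cells it was at 61.0 and 68.4 FPKM on days 6 and 9, and in SSEA-1- cells at 211 and 185 FPKM on days 12 and 16. Thy-1- cells were close to Thy-1+ cells, at 70.4 and 72.4 FPKM. SSEA-1+ cells held 111 and 27.4 FPKM on days 12 and 16, and iPSCs and mESCs held 9.42 and 5.37 FPKM. Every library other than D0 was thus above D0, and from day 12 to the iPSCs the levels of the successful route stepped down. The deposited interval of the D0 value ran from 0 to 7.40 FPKM, and that of D12S- from 0 to 463 FPKM. Galk1 shares the Itgb4 locus in the table and lay between 93.0 FPKM (D3) and 225 FPKM (mESCs), with a Pearson correlation of -0.16 with Itgb4 over the 12 libraries. The labels name a stranded kit and the study's methods one not called stranded, and whether the counting used strand is not given in the sources used here. Reads of Itgb4 and Galk1 may therefore not be fully separated.

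Itga3 (chr11:94905788-94938115, - strand) stood at 14.8, 10.8, 10.8 and 6.83 FPKM in D0, D3, D6T+ and D9T+. It was at 5.82 and 6.74 FPKM in D6T- and D9T-, the lowest of the 12 libraries. On day 12 it was at 21.3 FPKM in SSEA-1- and 26.1 FPKM in SSEA-1+ cells, and on day 16 at 47.5 FPKM in SSEA-1- and 16.8 FPKM in SSEA-1+ cells. iPSCs held 59.9 FPKM, 4.04-fold above D0 (log2 difference 1.94), and mESCs 43.4 FPKM. The SSEA-1- cells of day 16 thus stood nearer to the pluripotent lines than the SSEA-1+ cells did for this gene.

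Itga6 (chr2:71583673-71696473, + strand) lay between 10.2 FPKM in D9T- and 24.3 FPKM in D6T+, a 2.37-fold range, with 14.2 FPKM in D0 and 23.0 FPKM in iPSCs. The ratio of Itgb4 to Itga6 was therefore moved mainly by Itgb4. It was 0.108 in D0, 2.31 in D3, 13.4 in D12S-, 10.9 in D16S-, 7.45 in D12S+, 1.22 in D16S+, 0.410 in iPSCs and 0.294 in mESCs.

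Itga11 (chr9:62525633-62631789, + strand), the fibrillar collagen receptor of mesenchymal cells, passed 1 FPKM in D0 alone (1.05 FPKM) and lay at 0.54 FPKM in D3. In the other libraries it was between 0.01 FPKM (D6T-) and 0.41 FPKM (D16S-). It entered the kept genes through D0 only, so D0 had to be its highest library.

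**Figure D2:**
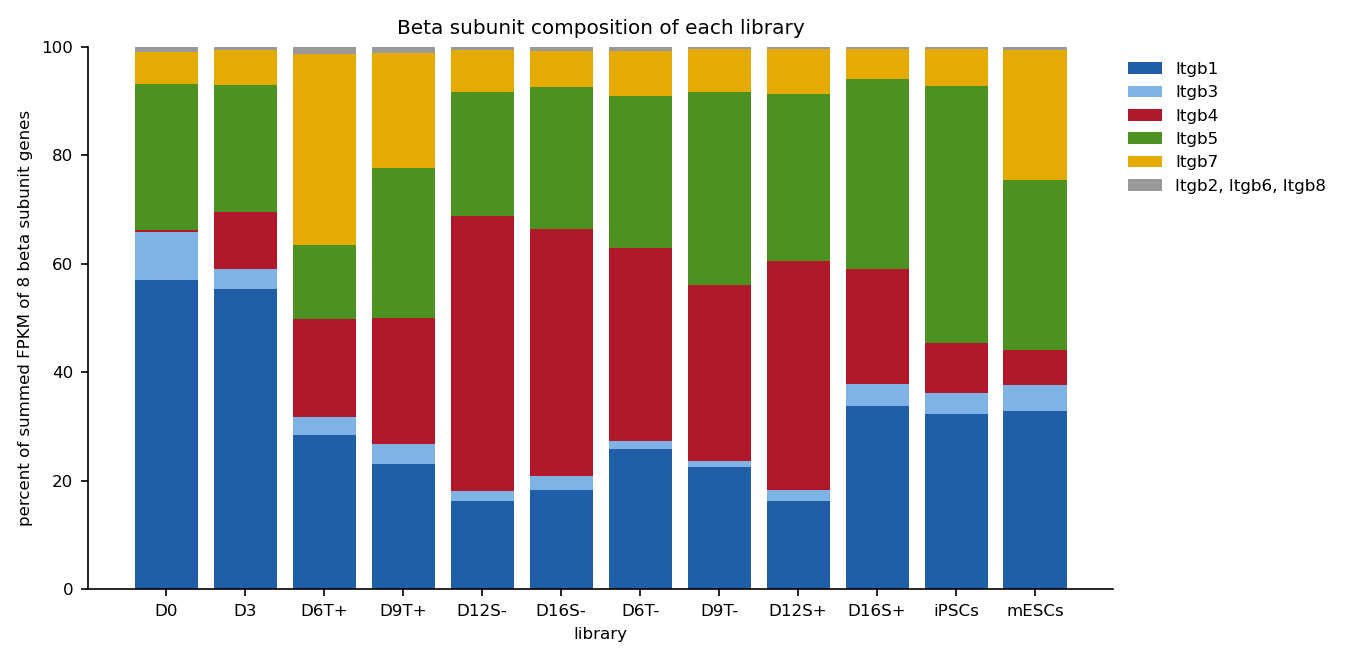
Percent of the summed FPKM of the 8 beta subunit genes held by each, in stacked bars, 1 bar per library. Itgb1 holds 57.0% in D0 and 16.2% in D12S+, whereas Itgb4 holds 0.416% in D0 and 50.7% in D12S-.

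FPKM is per transcript length, so the make-up of the beta subunit pool could be described within each library. In D0, Itgb1 held 57.0% of the summed FPKM of the 8 beta subunit genes, Itgb5 26.9%, Itgb3 8.89% and Itgb4 0.416%. In D12S- the shares were 16.3% for Itgb1, 22.9% for Itgb5 and 50.7% for Itgb4. Itgb4 was also the leading beta gene of D6T-, D12S+ and D16S-, with 35.8%, 42.2% and 45.5%. In iPSCs Itgb5 led with 47.4%, ahead of Itgb1 with 32.4%, and in mESCs Itgb1 with 32.9% was ahead of Itgb5 with 31.3%. The summed FPKM of all 26 integrin genes was 0.107% of the total FPKM in D0, 0.118% in D16S-, 0.0463% in D16S+, 0.0493% in iPSCs and 0.0373% in mESCs. Among the alpha subunit genes Itga5 held 75.6% of the sum in D0 and 40.4% in iPSCs, and Itga3 held 4.58% in D0 and 35.8% in iPSCs. Among the 5 beta genes whose products pair with alpha-v (Itgb1, Itgb3, Itgb5, Itgb6, Itgb8), Itgb5 held 29.0% in D0 and 62.6% in D12S+.

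The first comparison asked how D3 differed from D0, with infection and medium changed together. In D3 against D0, 1 of the 10 genes was at least 2-fold higher (Itgb4) where 5.76% of the kept genes were, and 1 was at least 2-fold lower (Itgb3) where 8.67% were. The median log2 difference of the 10 genes was -0.42, that of all kept genes -0.02. Itga5 came next at -0.97 and was short of 2-fold.

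By D9T-, 1 gene was higher (Itgb4, log2 difference 4.86; background 12.6%) and 5 were lower (Itgb3, Itga5, Itgb1, Itga3 and Itga11; background 14.7%). Since Itga11 was kept through D0 only, its place on the lower side was fixed by the filter, and 4 lower genes stand without it. Of the 5, Itga3 (-1.03) and Itga11 (-1.01) passed narrowly, and after scaling to the same total FPKM they stood at -0.73 and -0.88. The median of the 10 genes was -0.85, while that of all kept genes was 0. Its middle genes were Itgav (-0.68) and Itga11 (-1.01), so it rests in part on the gene that the filter kept through D0. Itga11 was likewise a middle gene of the medians given for D3, D16S+ and iPSCs against D0. The fibroblast markers moved alongside: 9 of 9 were at least 2-fold lower in D9T- than in D0, and their summed FPKM was 378 against 7666. The part of these cells in the integrin levels was not tested.

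The late SSEA-1+ cells, D16S+ against D0, had 1 higher gene (Itgb4, 3.49; background 20.0%) and 4 lower ones (Itga5 -2.87, Itgb3 -2.44, Itgb1 -2.24 and Itgb5 -1.11; background 20.9%). After scaling to the same total FPKM, Itgb5 was at -0.70 and Itga6 was at 1.02, past the threshold. Their SSEA-1- counterparts, D16S- against D0, had 2 higher genes (Itgb4 6.20 and Itga3 1.62; background 12.8%) and 3 lower ones (Itga5 -1.91, Itgb3 -1.62 and Itgb1 -1.48; background 11.4%). The medians of the 10 genes were -0.93 and 0.11. Itga5, Itgb1 and Itgb3 were on the lower side in both.

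Across the whole course, iPSCs against D0, 2 genes were higher (Itgb4 2.04 and Itga3 1.94; background 18.7%) and 5 were lower (Itgb3 -2.79, Itgb1 -2.62, Itga5 -1.84, Itgav -1.17 and Itgb5 -1.01; background 21.6%). The median of the 10 genes was -0.82, that of all kept genes 0.03. The last step, iPSCs against D16S+, had 2 higher genes (Itga3 1.78 and Itga5 1.03; background 4.38%) and 1 lower gene (Itgb4 -1.45; background 7.77%). Itga5 was at 0.86 after scaling to the same total FPKM. The median of the 10 genes was 0.03, and it was -0.10 after that scaling.

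To separate the routes, fractions from the same day were set against each other, so that no library serves 2 days. On day 6, D6T- against D6T+, none of the 10 genes was higher (background 2.93%) and 3 were lower (Itga5 -1.93, Itgb3 -1.70 and Itga6 -1.02; background 9.47%). Itga6 was at -0.96 after scaling to the same total FPKM. On day 9, D9T- against D9T+, none was higher (background 1.81%) and 2 were lower (Itgb3 -1.87 and Itga5 -1.57; background 6.45%). On day 12, D12S+ against D12S-, none passed in either direction (background 4.79% higher and 3.03% lower), and Itgb4 was nearest at -0.92. On day 16, D16S+ against D16S-, none was higher (background 11.8%) and 4 were lower (Itgb4 -2.71, Itga3 -1.45, Itgb5 -1.21 and Itgav -1.01; background 15.2%). Itgav was at -0.91 after scaling to the same total FPKM.

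**Figure D3:**
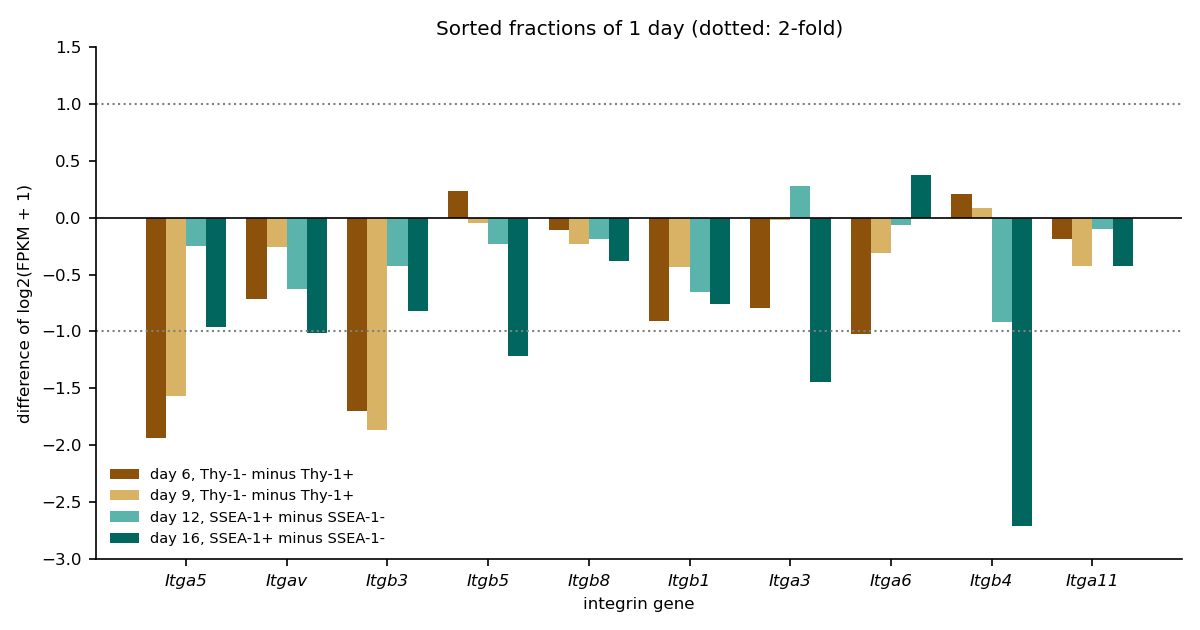
Difference of log2(FPKM + 1) between the sorted fractions of 1 day, for each of the 10 integrin genes, with 1 bar per day and dotted lines at 2-fold. Itga5 and Itgb3 pass the threshold on days 6 and 9, and Itgb4, Itga3, Itgb5 and Itgav on day 16.

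On day 16 Itga5 (-0.96) and Itgb3 (-0.82), which passed 2-fold on days 6 and 9, were just short of it. Itgb1 was on the lower side in the successful route on all 4 days, with differences of -0.43 to -0.91, and never past 2-fold. Itga5, Itgav and Itgb3 were also on the lower side on all 4 days. So were Itga11 and Itgb8, but with every level in these fractions under 1 FPKM, and no direction is read from them. The share of all kept genes lower on all 4 days was not counted, so no trait of the integrin genes is read from this. The difference between days was not tested. The fibroblast markers lay the same way: 9 of 9 were at least 2-fold lower in D6T- than in D6T+, with sums of 448 and 2995 FPKM, and 8 of 9 in D16S+ than in D16S-, with sums of 36.9 and 497 FPKM. Thy-1 itself was used for the sort. Of the 6 epithelial markers, D16S+ held 2 past 2-fold above D16S- (Cdh1, Epcam) and 2 below it (Krt8, Krt18), with a median difference of 0.43, while their sums were 831 and 1408 FPKM. The part of these cells in the integrin differences was not tested.

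iPSCs and mESCs, the end points, were also set against each other. None of the 10 genes passed 2-fold in either direction (background 6.79% higher and 7.41% lower). With such shares few of 10 genes would pass, so this is no trait of the integrin genes. Apart from Itga11 and Itgb8, which lay under 1 FPKM in both lines, all differences were on the higher side in iPSCs. The share of all kept genes on that side was not counted, so no trait of the integrin genes is read from this. The median difference of the 10 genes was 0.30, against -0.01 over all kept genes. Itgb5 was the furthest apart, 1.89-fold higher in iPSCs (log2 difference 0.89, and 1.01 after scaling to the same total FPKM), followed by Itgb4 at 0.71. Itgb3 differed by 0.00. iPSCs and mESCs are different lines, 1 library each, and line and origin cannot be told apart.

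Of the other 16 integrin genes, 11 reached 1 FPKM. The highest were Itgb7, Itga7, Itga10 and Itga2b. Itgb7, a partner of alpha4 and alphaE in lymphocytes, stood at 21.7, 120, 62.5, 16.5 and 7.10 FPKM in D0, D6T+, D9T+, D6T- and iPSCs. It was thus the leading beta gene of D6T+, with 35.3% of the beta sum, while Itga4 and Itgae stayed at or under 2.43 and 1.10 FPKM. Itga7, a laminin receptor of muscle, stood at 18.0, 54.1, 7.98 and 2.64 FPKM in D0, D16S-, D16S+ and iPSCs. In iPSCs against D0, 5 of the 16 were at least 2-fold lower (background 21.6%) and 1 was higher (background 18.7%), Itgal, at 3.02 against 0.02 FPKM. Itgb2, the leukocyte beta subunit, stayed at or under 3.76 FPKM.

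**Figure D4:**
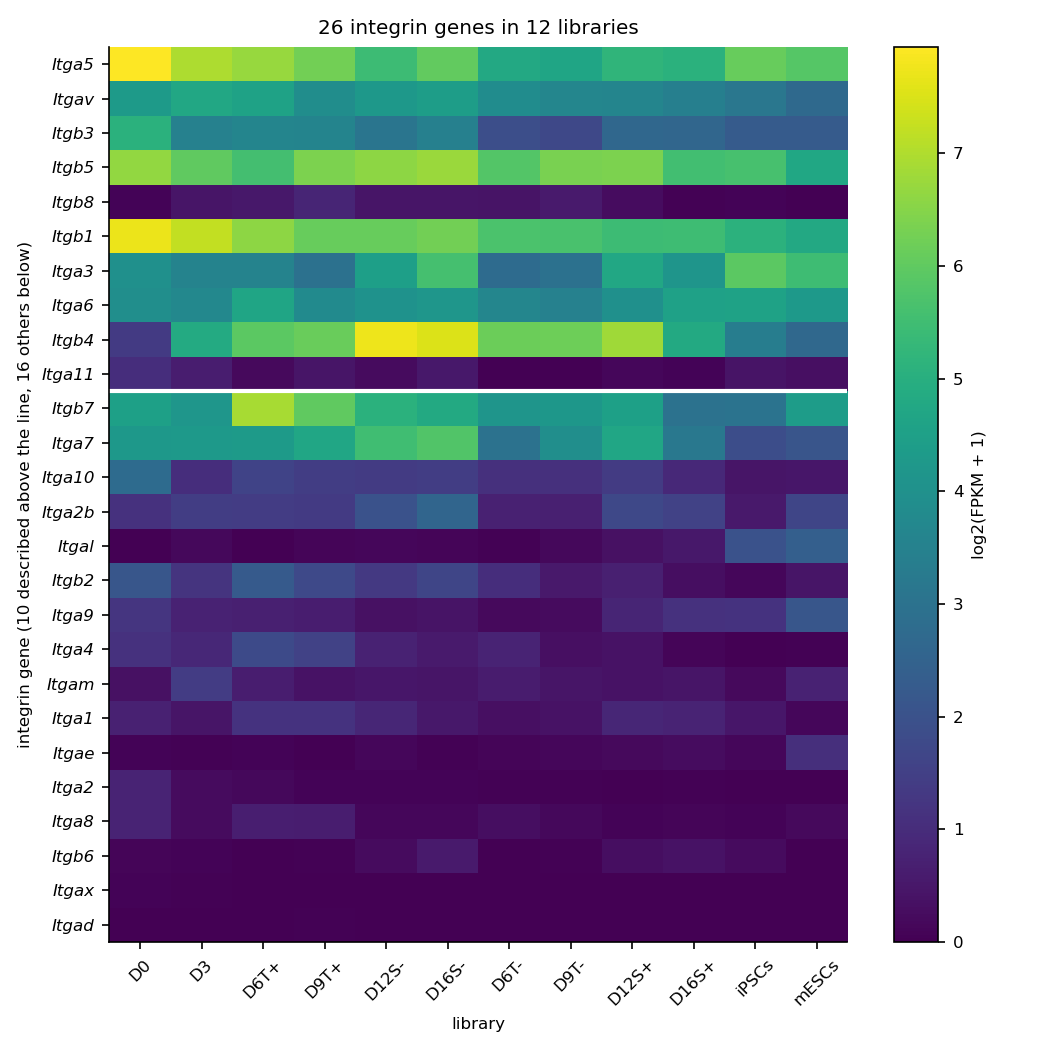
Heat map of log2(FPKM + 1) of 26 integrin genes (rows, the 10 described genes above the white line) in 12 libraries (columns). Itga5, Itgb1 and Itgb5 are bright in D0, Itgb4 in D12S- and D16S-, and Itgb7 in D6T+.

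Inside the cell, integrin tails are joined to actin by plaque proteins. Of 20 genes for plaque adapters and kinases, 6 had at least a 2-fold lower level in iPSCs than in D0 and 1 a higher one (Fermt3, the kindlin of blood cells, 1.34), with a median of -0.46. The background shares were 21.6% lower and 18.7% higher, and the shares given above for each comparison stand beside the lists that follow as well. Zyx, which encodes the adapter zyxin, stood at 553, 64.1, 35.6 and 123 FPKM in D0, D9T-, D16S+ and iPSCs. Ilk, the integrin-linked pseudokinase, stood at 322, 83.4, 50.2 and 77.9 FPKM in the same libraries. Actn1, an actin cross-linker, was at 323, 58.1, 85.3 and 201 FPKM, and Actn4 at 422, 221, 279 and 555 FPKM. Like Itga5, these 4 genes were lower in D16S+ than in D0 and higher in iPSCs than in D16S+, by 0.62 (Ilk) to 1.76 (Zyx) on the log2 scale. In D16S+ against D0, 10 of the 20 were at least 2-fold lower (background 20.9%) and none higher (background 20.0%).

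The genes for ligands of RGD-binding integrins, not all of which carry RGD, were mostly lower in iPSCs as well. Of 11 such genes, 10 of which reached 1 FPKM, 9 passed 2-fold downwards from D0 to iPSCs and none upwards, with a median of -2.48. Fn1, fibronectin, stood at 1124, 396, 196 and 281 FPKM in D0, D9T-, D16S+ and iPSCs. Tnc, tenascin C, stood at 2399 and 3.95 FPKM in D0 and iPSCs, and Spp1, osteopontin, at 985 and 176 FPKM. Cyr61 was the gene of the named 4 that did not pass between iPSCs and D0, with 327 and 196 FPKM, and it reached 901 FPKM in D9T+. Vtn, vitronectin, stayed at or under 0.21 FPKM in every library. Between the day 6 fractions, 8 of the 11 were at least 2-fold lower in D6T-.

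Among 11 laminin chain genes the direction was mixed. In iPSCs against D0, 6 were at least 2-fold higher, Lama5 and Lamc1 among them, and 4 lower (Lama2, Lama4, Lamb1, Lamb2), with a median of 1.02. Lama5 stood at 4.75, 62.3, 134, 86.6 and 112 FPKM in D0, D9T-, D16S-, D16S+ and iPSCs. Lamb1 stood at 328 and 32.7 FPKM in D0 and iPSCs, Lamb2 at 47.2 and 16.7 FPKM, and Lamc1 at 60.1 and 171 FPKM. In D16S+ against D16S-, 6 of the 11 were at least 2-fold lower and none higher.

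The hemidesmosome list held 7 genes for partners and ligands of alpha6-beta4. In D16S- against D0, 4 were at least 2-fold higher and none lower, and in iPSCs against D0, 3 were higher and 2 lower (Plec, Cd151). Lama3 and Lamb3, laminin chain genes chosen here after their values were seen, were highest in D12S- (12.8 FPKM) and in D16S- (5.69 FPKM). Over the 12 libraries the Pearson correlation with Itgb4 was 0.86 for Lama3 and 0.82 for Lamb3, and without D0 it was 0.76 and 0.74. Plec, plectin, stood at 140, 83.7 and 28.9 FPKM in D0, D16S- and iPSCs, and Cd151, a tetraspanin that binds laminin receptors, at 237, 177 and 73.6 FPKM. Dst, dystonin, stood at 23.0, 57.7 and 43.1 FPKM in the same libraries. Of the epidermal markers Krt5, Krt15, Trp63 and Dsg3 stayed at or under 1.64, 0.20, 0.65 and 0.28 FPKM, Krt14 reached 39.9 FPKM in D16S-, and the 7 markers summed to 7.55 FPKM in D0 and 240 FPKM in D16S-, of which Sfn gave 194 FPKM. The sum of the 6 epithelial markers was 1408 FPKM in D16S- and 1556 FPKM in iPSCs, where Itgb4 was low. The part of these cells in the Itgb4 level was not tested.

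**Figure D5:**
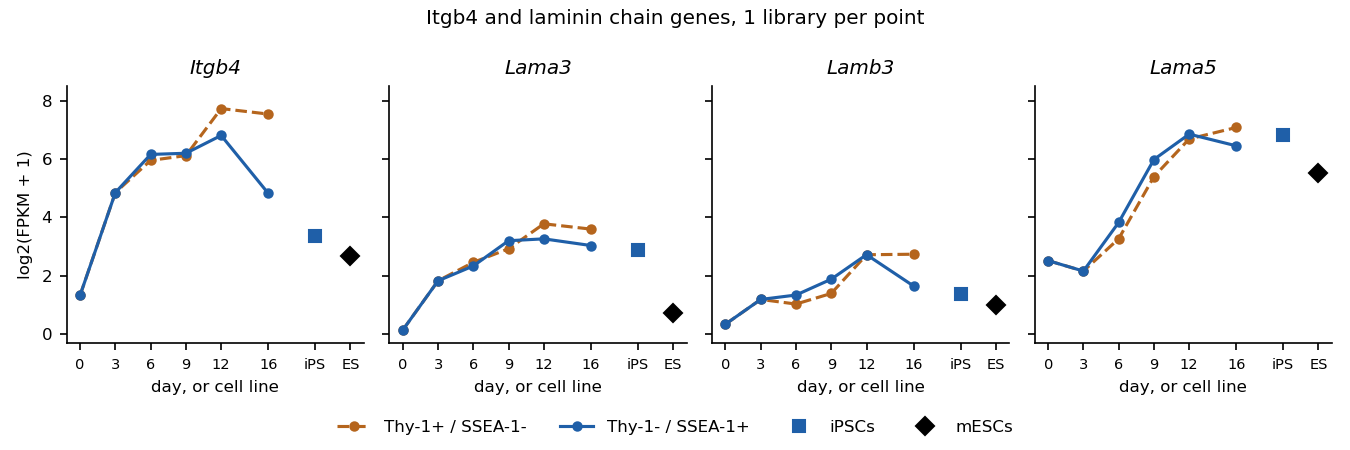
Level of Itgb4 and of the laminin chain genes Lama3, Lamb3 and Lama5 as log2(FPKM + 1) against day, with iPSCs (squares) and mESCs (diamonds) to the right and 1 library per point. All 4 are low in D0 and higher in D16S-, and Lama5 stays up in iPSCs (112 FPKM), where Itgb4 is at 9.42 FPKM.

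The fibrillar collagens are ligands of alpha11-beta1. Of 7 genes, 6 passed 2-fold downwards from D0 to iPSCs and 1 upwards, Col2a1 (3.03 against 0.41 FPKM), with a median of -6.44. Col1a1 stood at 3453, 16.3 and 38.7 FPKM in D0, D16S+ and iPSCs, and Col3a1 at 1175, 2.97 and 2.29 FPKM. Of 6 genes of the latent TGF-beta complex, which alpha-v dimers activate, 5 were lower in iPSCs than in D0 and 1 higher (Nrros, 3.67 against 0.13 FPKM), with a median of -2.98. Tgfb1 stood at 72.5 and 8.24 FPKM in D0 and iPSCs, and Lrrc32, a surface anchor of the complex, at 79.5 and 4.33 FPKM. Ltbp1, which stores the complex in the matrix, was level between D0 and D9T- (67.5 and 72.8 FPKM) and stood at 1.61 FPKM in iPSCs.

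The likeness of patterns was described by Pearson correlation of log2(FPKM + 1) over the 12 libraries, which share depth and the D0 library with every gene, and no p is given. Among the 10 genes, Itga5 and Itga11 had r = 0.91, Itga5 and Itgb3 0.88, and Itgav and Itgb1 0.87. Without D0 these values were 0.83, 0.77 and 0.96. Itga11 passed 1 FPKM in D0 alone and lay at or under 0.54 FPKM elsewhere, so its likeness to Itga5 rests on values near the floor. Itga5 and Itgb1, the subunits of the fibronectin receptor, had r = 0.75, and 0.58 without D0. Itgb4 and Itgb5 had r = 0.43, and 0.87 without D0, so that value turned on the D0 library. Itgb4 and its partner Itga6 had r = -0.19.

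Among the 8804 genes that reached 10 FPKM in any library and are no integrin, the closest to Itga5 were Farp1 (r = 0.98), Creb3l1 (0.97) and Mob3a (0.96). Those closest to Itgav were Cav1, the coat protein of caveolae (0.97), Rin1 (0.96) and Msn, which links actin to the membrane (0.96). For Itgb3 they were 6030419C18Rik (0.96), Ccdc102a (0.96) and the actin-capping gene Capg (0.96). For Itgb1 they were Uhrf1bp1l, Micall1 and Tax1bp3, each at 0.97. For Itgb4 they were Ceacam1, a cell adhesion molecule (0.98), Mst1 (0.97) and Mal (0.96), all 3 with their highest level in D12S- or D16S-. For Itgb5 they were Fam173a (0.94), Ift43 (0.91) and Tor3a (0.91), and for Itga3 Guca1a (0.91) and Sema4b (0.90). Itga6 had no gene above 0.82 (Erlin2, Usp8 and Decr2). For Itga11 they were Eid2, Prrx2 and Ptpn23 (0.91 to 0.92), and for Itgb8 Slc22a23, Cd55 and Slc6a6 (0.92 to 0.93), but these 2 genes lay at or below about 1 FPKM. Of the 30 genes that met this rule, 8 were also named without D0 and 12 by Spearman correlation.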

How the data were processed

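mRNA was measured in 12 libraries, 1 per condition. Per the labels, libraries were made with the TruSeq Stranded mRNA kit, whereas the study's methods name a TruSeq RNA kit. Reads were mapped to mm9 with STAR. Reads that carried over 2 mismatches or hit over 1 locus were dropped, which lowers genes that have near-identical copies. The authors estimated FPKM with cuffdiff, and the deposited table gives FPKM with a lower and an upper end of its interval (95% by default). Software versions, gene annotation, scaling and use of strand are not given in the sources used here. A further 12 columns of status words, 1 per library, were not used.

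Groups and columns were matched by day and sorting marker. Values were analysed in Python 3.11.15 with pandas 2.3.3 and numpy 2.4.6 as log2(FPKM + 1), and 14178 of 24098 genes with at least 1 FPKM in at least 1 library were kept as background. A threshold of 2-fold was applied without a test, since each condition had 1 library. The integrin genes and the gene lists were chosen with earlier results of these data known. From each list the 4 genes with the highest FPKM and those past 2-fold against most of the list were named, and for likeness the 3 genes with the highest correlation. Some genes that met these rules are not reported here. Positions are GENCODE M1 on NCBIM37. The functions for fold counts, scaling and correlation were tested on simulated data. Alternatives were the pseudocount, 2 scalings, the threshold and filter, the denominator of shares and the measure of likeness.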

Additional observations from a re-analysis of the deposited data

How the results depend on the processing

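No paired analysis was possible because each condition had 1 library, and no library can be left out of a group. Scaling by the median of ratios left each of the 22 counts of integrin genes past the threshold within 1.5 times. Its factors lay between 0.985 (D9T-) and 1.00 (D16S+), so it could hardly move any value and is no check of the counts. Of the 110 single-gene differences, none that passed 2-fold turned its direction under the pseudocount or either scaling. Scaling to the same total FPKM moved the median of all kept genes by 0.14 to 0.30 on the log2 scale in comparisons with D0 and by -0.12 between iPSCs and D16S+. The share of higher genes among those past 2-fold went from 39.9% to 56.5% (D3), 46.3% to 62.3% (D9T-), 48.9% to 65.6% (D16S+) and 52.9% to 68.2% (D16S-), each against D0, and from 36.1% to 22.9% for iPSCs against D16S+.

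After that scaling, the integrin genes lower than in D0 numbered 3 in D9T- and 3 in iPSCs (5 and 5 as deposited), those higher than in D0 numbered 2 in D16S+, and 1 gene was higher in iPSCs than in D16S+ and 1 than in mESCs. The median of the 10 genes between iPSCs and D16S+ turned from 0.03 to -0.10. With a pseudocount of 0.1 FPKM, 2 genes were higher in D3 and 2 in D9T- than in D0, Itgb8 being the added gene. With a threshold of 4-fold, 0 genes were lower in D3, 3 in D9T-, 0 in D16S- and 2 in iPSCs than in D0, 1 was higher in D16S- and 1 in iPSCs, 0 were lower in D6T- than in D6T+ and 0 in D9T- than in D9T+, 1 was lower in D16S+ than in D16S-, and 0 were higher and 0 lower in iPSCs than in D16S+. The fewer calls follow from the stricter threshold itself, and the cause of the other changes was not tested. Without a filter on low values the background shares moved by over 1.5 times in 22 of 22 cases, since genes at 0 then count as tested. Of the 30 genes chosen for likeness, 12 were shared by Spearman correlation and 8 by Pearson correlation without D0. Counting only the partners of alpha-v moved 19 of 24 shares of Itgb1 and Itgb5 by over 10 percentage points. Depth and the single library per condition limit statements on Itga11 and Itgb8.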
